A study of Mus musculus with 6 samples.

Results

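The BCL2 family is the group of proteins that decides whether the outer mitochondrial membrane is breached during apoptosis. The 10 genes described here were chosen by name, as pro-survival members (Bcl2, Bcl2l1, Mcl1), effectors (Bax, Bak1) and BH3-only members (Bbc3, Pmaip1, Bcl2l11, Bid, Bad). Their rows were taken from a table of 57010 gene identifiers, in which all 10 were found. The cells were CT26, a line derived from a mouse colon carcinoma. They carried a guide RNA that was either a control (sgControl, 3 RNA-seq libraries) or directed at Cdk10, which encodes a cyclin-dependent kinase (sgCdk10, 3 libraries). The labels name no other treatment in either group, and give neither the guide's target site nor whether the cells were a clone or a pool. They also do not say whether each library had its own culture, so the p-values cover only the spread between libraries, which may be technical.

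In this family, pro-survival proteins hold the effectors BAX and BAK in check. BH3-only proteins, named for the short domain they use to bind the others, sense damage or lost growth signals and either block the pro-survival proteins or switch on the effectors, which then open pores that release cytochrome c. Much of this control acts on the proteins, through phosphorylation, cleavage and degradation, and mRNA counts do not measure it. The study's title concerns CDK10, antitumor immunity and sensors of nucleic acids. The comparison of sgCdk10 with sgControl asks how mRNA levels differ once Cdk10 is targeted.

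Libraries held 17532202 to 19258309 counts. A count of 3, used as the floor of detection, corresponded to 0.156 to 0.171 CPM (counts scaled to the library's total) in a library, for counting error only. The targeted gene, Cdk10, was lower in every sgCdk10 library, with 204, 227 and 202 counts against 381, 344 and 365 (log2 fold change -0.82, SE 0.08; adjusted p by edgeR = 8.45e-09). In a principal component analysis the groups separated along the first axis (53.3% of variance), and sgControl replicate 3 stood apart along the second (16.5%). Of 10 colon epithelial markers Epcam was at 0 in every library and Cdh1 had at most 1 count, while 6 mesenchymal markers summed to 5490 to 5610 CPM in sgControl and 5760 to 5990 in sgCdk10. The epithelial markers summed to 36.9 to 40.7 CPM in sgControl and 58.0 to 59.4 in sgCdk10, mostly Krt18 and Krt20. Of 10 leukocyte markers 9 had at most 3 counts in any library, and Cd3e, Cd8a, Adgre1 and Nkg7 were at 0. Their sum was 0.276 to 0.564 CPM in sgControl and 0.166 to 0.467 in sgCdk10, and the part of these markers in the results was not tested. In bulk RNA, fewer cells of a kind and less RNA per cell cannot be told apart.

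Of the 10 genes 9 had enough counts to be tested and Pmaip1 had none. A gene was called where edgeR's quasi-likelihood test, adjusted by the Benjamini-Hochberg method over all 13442 tested genes, gave a value below 0.05. By this rule 6 of the 9 differed, 3 higher in sgCdk10 (Bcl2l1, Mcl1, Bcl2l11) and 3 lower (Bax, Bbc3, Bid). Over all tested genes 42.5% were called, 22.1% higher and 20.4% lower, so differences of this kind were common in these libraries. The libraries of the groups did not overlap in the same 6 genes, against 51.3% of all tested genes. The median log2 fold change of the 9 was 0.01, against 0.00 for all tested genes, and the median size regardless of sign was 0.14 against 0.16.

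Promoter sequence from RefSeq on GRCm38.p6, the build that mm10 names, was used for 9 of the 10 genes. That of Pmaip1 was left out and not looked up. The sequences of 4 of them are shown, from genes of the BH3-only and pro-survival classes that differed between the groups. Not every gene that differed is shown. Of the Bbc3 windows, only the second, shown here, held a match to the motifs described below. Each runs 5′ to 3′ towards the start site and leaves out annotated exons, and capitals mark matches to motifs described after them.
Bcl2l11, first start site, chr2:128125788-128126037, plus strand: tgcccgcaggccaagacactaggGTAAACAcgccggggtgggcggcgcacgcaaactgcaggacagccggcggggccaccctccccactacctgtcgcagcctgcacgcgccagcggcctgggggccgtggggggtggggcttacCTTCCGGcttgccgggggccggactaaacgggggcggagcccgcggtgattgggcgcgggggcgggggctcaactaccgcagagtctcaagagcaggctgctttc
Bbc3, the second of 3 start sites, chr7:16310011-16310260, plus strand: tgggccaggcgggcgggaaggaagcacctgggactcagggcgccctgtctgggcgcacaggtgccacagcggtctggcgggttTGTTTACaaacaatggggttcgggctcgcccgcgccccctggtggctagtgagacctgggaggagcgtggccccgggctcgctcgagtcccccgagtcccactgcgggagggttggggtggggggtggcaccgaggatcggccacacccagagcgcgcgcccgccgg
Bid, chr6:120916854-120917074, minus strand: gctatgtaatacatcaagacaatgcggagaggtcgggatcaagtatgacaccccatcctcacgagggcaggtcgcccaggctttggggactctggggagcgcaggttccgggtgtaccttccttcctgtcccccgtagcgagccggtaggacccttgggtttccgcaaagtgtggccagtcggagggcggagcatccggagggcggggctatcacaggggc
Mcl1, chr3:95658471-95658720, plus strand: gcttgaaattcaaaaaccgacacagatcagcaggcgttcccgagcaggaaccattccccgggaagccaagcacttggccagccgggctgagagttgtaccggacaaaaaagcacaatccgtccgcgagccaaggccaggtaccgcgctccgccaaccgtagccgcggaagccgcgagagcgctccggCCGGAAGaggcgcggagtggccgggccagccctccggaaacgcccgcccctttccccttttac

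Most of these promoters were rich in G and C. In windows of 300 bases, from 250 before the start site to 50 after it, 6 of the 9 genes had at least 60% GC at their first start site, against 29.5% of 32851 promoter windows. The range was 52.3% for Bcl2l1 to 76.0% for Bcl2 and Bbc3, and the median of all windows was 52.7%. The ratio of observed to expected CpG was 0.435 for Bak1 and up to 1.07 for Bcl2l1, at first start sites, each above the median of 0.384.

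Motifs were searched on both strands, and none of the matches overlapped another. The FOXO core GTAAACA, bound by FOXO3, was found in Bcl2l11, 227 bases before the first start site, and in Bbc3, 167 bases before the second, and in 3.65% of all windows. The ETS core CCGGAAG was found in Bcl2l11, 105 bases before the start, in Mcl1, 63 bases before it, and in Bcl2l1 after the start site. It was present in 8.86% of all windows. A p53 half-site was found in Bax, 201 bases before the start, and in 8.36% of all windows. The AP-1 core TGANTCA (7.81% of all windows) and the ATF4-CHOP element TGATGNAA (3.97%) had no match in the 15 windows of the 9 genes. The shares are per window, whereas some of the 9 genes, Bbc3 and Bcl2l11 among them, were searched in more than 1 window. A match describes the letters of a window and does not show that a factor binds there.

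Among the pro-survival genes Mcl1 and Bcl2l1 rose by small amounts. Mcl1 (ENSMUSG00000038612, chr3:95658788-95663176, plus strand, 3 merged exons) encodes a short-lived protein that restrains BAK and binds BIM and NOXA. Its level was 193, 196 and 202 CPM in sgControl and 212, 219 and 221 in sgCdk10. All 3 sgCdk10 libraries lay above all 3 sgControl libraries. The log2 fold change was 0.14 (SE 0.03; adjusted p by edgeR = 0.000489), or 1.10-fold.

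Bcl2l1 (ENSMUSG00000007659, chr2:152780668-152831728, minus strand, 5 merged exons) encodes BCL-XL, which also binds BAX and BAK, and a shorter pro-apoptotic splice form that counts per gene do not separate. It was at 164, 168 and 154 CPM in sgControl and 174, 180 and 186 in sgCdk10, again without overlap. The log2 fold change was 0.15 (SE 0.03; adjusted p by edgeR = 0.00097). In these libraries 51.4% of the tested genes had a larger fold change in either direction.

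Bcl2 (ENSMUSG00000057329, chr1:106538178-106714274, minus strand) gave the family its name and is best known from lymphoma. It had 25.8, 23.9 and 24.1 CPM in sgControl and 24.6, 26.5 and 23.5 in sgCdk10, with overlapping groups. The log2 fold change was 0.01, with a 95% interval from -0.11 to 0.14 (adjusted p by edgeR = 0.892). Its exons overlap those of D630008O14Rik on the opposite strand by 558 bases.

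Of the effectors Bax was lower and Bak1 did not pass the test. Bax (ENSMUSG00000003873, chr7:45461697-45466898, minus strand, 5 merged exons) encodes the effector that moves from the cytosol to mitochondria on activation, and is a known p53 target. It was at 88.6, 84.6 and 80.3 CPM in sgControl and 78.4, 76.6 and 74.4 in sgCdk10. The highest sgCdk10 library lay just below the lowest sgControl library. Bax fell by 0.14 in log2 units (SE 0.04; adjusted p by edgeR = 0.00537), and 192 bases of its exons are shared with the predicted gene Gm45808.

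Bak1 (ENSMUSG00000057789, chr17:27019810-27029009, minus strand, 7 merged exons) encodes the effector that sits in the outer mitochondrial membrane. Its level was 118, 126 and 123 CPM in sgControl and 119, 115 and 123 in sgCdk10, with overlapping groups. The log2 fold change was -0.04, with a 95% interval from -0.11 to 0.03 (adjusted p by edgeR = 0.354). Exons of Bak1 overlap those annotated for Ggnbp1 on the opposite strand by 437 and 177 bases. Whether Bax and Bak1 responded differently from each other was not tested.

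Of the 4 tested BH3-only genes, Bid and Bbc3 fell, Bcl2l11 rose and Bad did not pass the test. The 3 that passed had the largest changes among the 9 tested members. Bid (ENSMUSG00000004446, chr6:120891930-120916853, minus strand, 9 merged exons) encodes the protein that caspase-8 cleaves to carry a death receptor signal to mitochondria. It was at 68.8, 68.2 and 70.4 CPM in sgControl and 49.7, 50.4 and 50.5 in sgCdk10. The spread within a group was small and the groups were far apart. Bid fell by 0.46 in log2 units (SE 0.04; adjusted p by edgeR = 2.25e-09), to 0.726 of the control level, and 13.3% of the tested genes had a larger change. Its exons share 628 bases with those of Bcl2l13 on the opposite strand, which fell by 0.11. The part of the neighbour in the Bid count was not tested.

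Bcl2l11 (ENSMUSG00000027381, chr2:128126038-128162547, plus strand, 6 merged exons) encodes BIM, which binds every main pro-survival protein, is a known FOXO3 target, and is marked for degradation by ERK. It had 17, 19.4 and 17.7 CPM in sgControl and 23.6, 26.2 and 23.3 in sgCdk10. Every sgCdk10 library was above every sgControl library. Bcl2l11 rose by 0.43 in log2 units (SE 0.07; adjusted p by edgeR = 1.33e-05), or 1.35-fold. Its isoforms, which differ in potency, were not separated by the counting.

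Bbc3 (ENSMUSG00000002083, chr7:16308393-16318205, plus strand, 6 merged exons) encodes PUMA, a p53 target that binds all the main pro-survival proteins and is also known to respond to CHOP, the product of Ddit3. It was at 15.6, 14.5 and 15.1 CPM in sgControl and 11.4, 11 and 11.9 in sgCdk10, without overlap. Bbc3 fell by 0.40 in log2 units (SE 0.08; adjusted p by edgeR = 0.00018), to 0.759 of the control level.

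Bad (ENSMUSG00000024959, chr19:6941861-6951899, plus strand, 4 merged exons) encodes a protein held inactive by AKT phosphorylation and 14-3-3 proteins. It had 17.5, 16.4 and 13.8 CPM in sgControl and 15.2, 17.7 and 15.4 in sgCdk10. The groups overlapped, with sgControl replicate 3 the lowest of all. The log2 fold change was 0.02, with a 95% interval from -0.16 to 0.19 (adjusted p by edgeR = 0.895), and 524 bases of its exons overlap Gpr137 on the opposite strand.

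**Figure D1:**
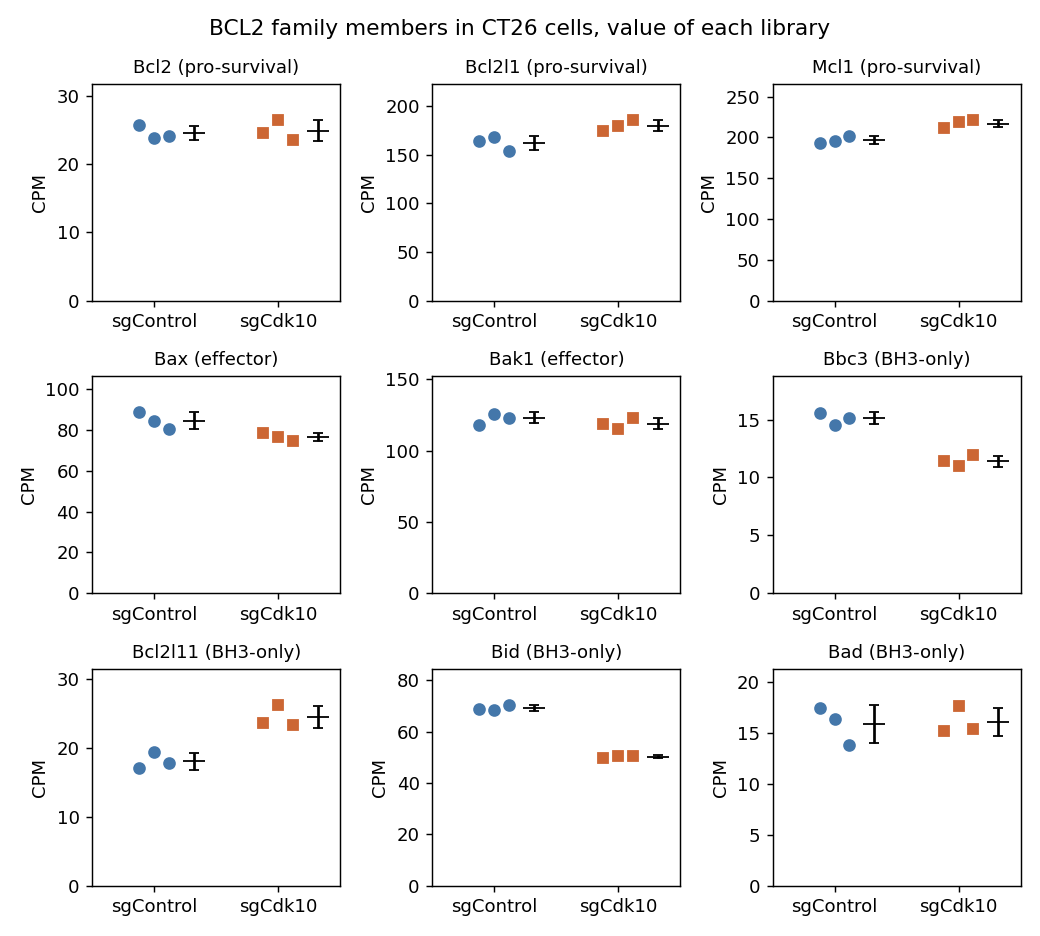
CPM of the 9 tested BCL2 family genes in each library (circles sgControl, squares sgCdk10; bar, mean ± SD, n = 3; axes start at 0). Bid and Bbc3 were lower and Bcl2l11 higher in all sgCdk10 libraries, Mcl1, Bcl2l1 and Bax were separated by smaller steps, and Bcl2, Bak1 and Bad overlapped.

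Pmaip1, which encodes NOXA, a BH3-only protein that targets MCL1, was listed at 0 counts in all 6 libraries. Over the 108565775 counts of the 6 libraries together, a count of 0 allows up to 3 counts, or 0.0276 CPM. No level and no difference was detectable at this depth. Its row (ENSMUSG00000024521) lies on chromosome 18 from 66458533 to 66465565, plus strand, with 3 merged exons and no annotated overlap with another gene. The nearest protein-coding genes, Ccbe1 at 156 kb and Mc4r at 392 kb, were also at 0 in every library, while Lman1 at 436 kb had 2216 to 2850 counts per library. On the other side Gnal at 623 kb had 2 to 10 counts and Chmp1b at 740 kb had 226 to 263. Whether these zeros reflect the cells or the assignment of reads was not tested.

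**Figure D2:**
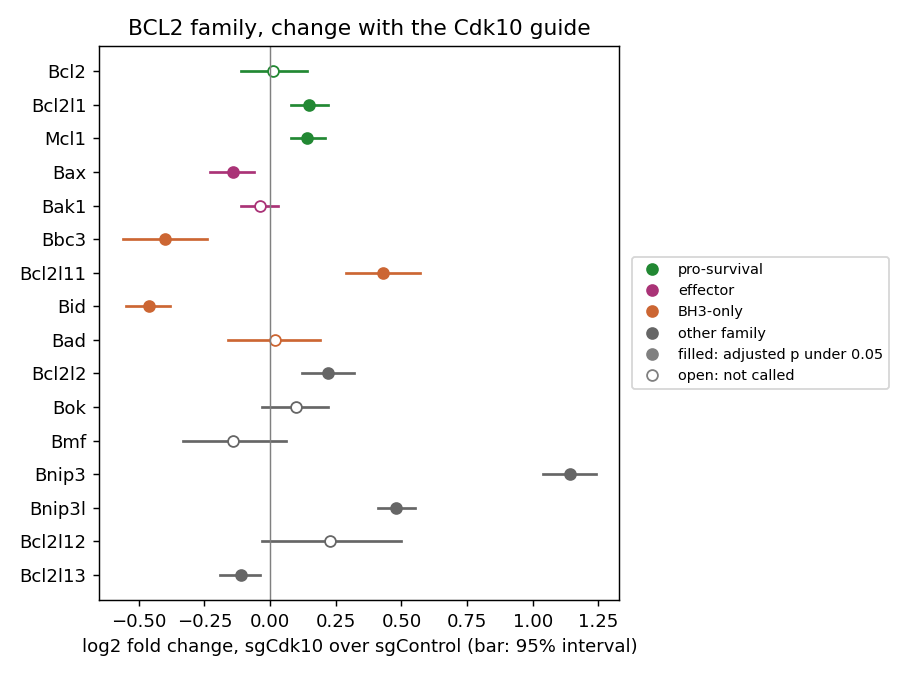
Log2 fold change, sgCdk10 over sgControl, of the 9 tested members and 7 further BCL2 family genes, with 95% intervals from the edgeR fit; filled points passed an adjusted p of 0.05. The members lie between -0.46 (Bid) and 0.43 (Bcl2l11), and Bnip3 at 1.14 lies furthest from 0.

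Levels can be compared between genes only per length, so CPM was divided by the length of merged exons in kilobases (kb). In sgControl the order was Mcl1 at 57.6 ± 1.43, Bax at 53.6 ± 2.62, Bak1 at 50.9 ± 1.6, Bcl2l1 at 35.3 ± 1.58 and Bid at 19.5 ± 0.312 CPM per kb (SD, n = 3). Bbc3 (7.09 ± 0.247), Bad (6.22 ± 0.735), Bcl2 (2.69 ± 0.115) and Bcl2l11 (2.25 ± 0.157) followed. Bax and Bak1 overlapped in their libraries, and Bbc3 and Bad met at 6.83. The cells thus held more mRNA per length of Mcl1 and Bcl2l1 than of Bcl2, with a ratio of Bcl2l1 to Bcl2 of 13.1 ± 0.775 in sgControl and 14.5 ± 1.17 in sgCdk10, which overlapped.

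In sgCdk10 the order differed at 3 places. Bak1 (49.4 ± 1.56) and Bax (48.5 ± 1.28) overlapped again with means in the reverse order. Bad (6.30 ± 0.536) stood above Bbc3 (5.38 ± 0.227), and Bcl2l11 (3.03 ± 0.195 CPM per kb) stood above Bcl2 (2.71 ± 0.168), the last with libraries from 2.90 to 3.26 and from 2.56 to 2.89. The order also depends on the length used: with the longest annotated transcript, an alternative chosen after seeing the data, Bax led in sgControl with 76.8 ± 3.75, before Bcl2l1 with 63.0 ± 2.83 and Mcl1 with 57.6 ± 1.43 CPM per kb, and Bcl2l11 (3.58 ± 0.251) was above Bcl2 (3.42 ± 0.147) in mean.

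**Figure D3:**
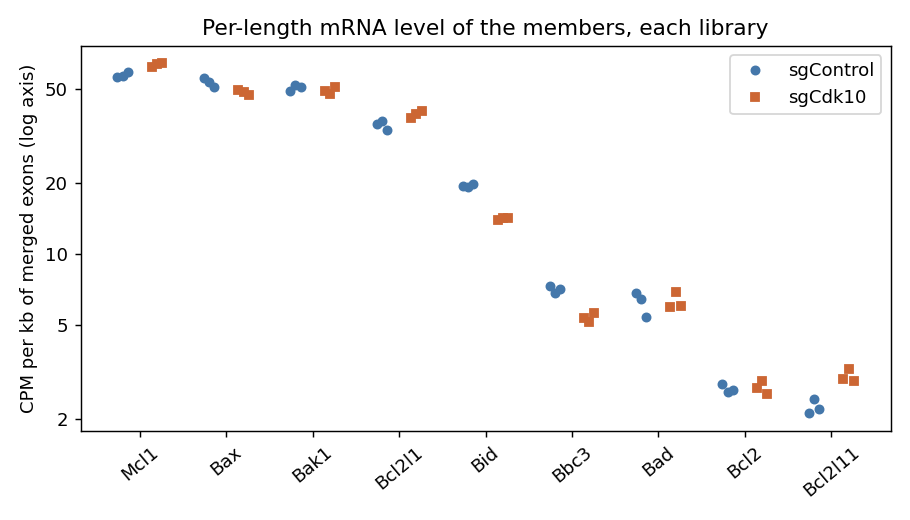
CPM per kb of merged exons in each library, on a log axis, for the 9 tested members in the order of their sgControl mean (circles sgControl, squares sgCdk10). Mcl1, Bax, Bak1 and Bcl2l1 form the upper group above 30 CPM per kb, and Bcl2 and Bcl2l11 lie between 2 and 4.

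Ratios within a library show the opposite movements of the BH3-only genes without any scaling between libraries. They are given as descriptions, since the members were chosen with results known. Per length, Bcl2l11 stood at 0.109, 0.126 and 0.111 of Bid in sgControl and at 0.210, 0.230 and 0.204 in sgCdk10. Bcl2l11 relative to Bbc3 was 0.289, 0.354 and 0.310 in sgControl and 0.550, 0.631 and 0.516 in sgCdk10. The share of BIM mRNA relative to either gene was therefore higher in every sgCdk10 library. These pairs set a gene that rose against genes that fell, so the shift follows from the single changes given above. Bax relative to Bcl2l1 went the other way, with 1.57, 1.47 and 1.52 in sgControl and 1.31, 1.24 and 1.17 in sgCdk10. Bcl2l1 relative to Mcl1, both of which rose, was 0.613 ± 0.0402 and 0.616 ± 0.00921 (SD, n = 3).

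Summed per length, the 3 pro-survival genes held 95.6 ± 0.841 CPM per kb in sgControl and 106 ± 2.50 in sgCdk10 (SD, n = 3). The 2 effectors held 105 ± 1.95 and 97.9 ± 1.38, and the BH3-only genes other than Pmaip1 35.0 ± 0.569 and 28.8 ± 0.654. The ratio of the pro-survival to the BH3-only sum was 2.66, 2.77 and 2.76 in sgControl and 3.64, 3.60 and 3.74 in sgCdk10. Bid, with 19.5 of the 35.0 in sgControl, made up most of the BH3-only sum, and Bcl2l11, with 2.25, little of it. With the longest transcript the ratio was 2.44 ± 0.047 and 3.23 ± 0.0816.

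Of 15 further BCL2 family genes 7 were tested, and 3 rose and 1 fell, or 57.1% called against 42.5% of all genes. Bcl2l2, the gene of the pro-survival protein BCL-W, had 38.3, 39.1 and 36.8 CPM in sgControl and 42.8, 46.1 and 44.0 in sgCdk10, a rise of 0.22 in log2 units (SE 0.05; adjusted p by edgeR = 0.000818). It shares 594 bases of exons with Gm20521. With it, 3 of the 4 tested pro-survival genes of the family were called higher, against 22.1% of all tested genes. This count joins members with a further gene and is a description only. Bnip3 and Bnip3l, which carry a BH3-like stretch and are best known as mitophagy receptors, rose by 1.14 and 0.48. Bcl2l13 fell by 0.11 (SE 0.04; adjusted p by edgeR = 0.0137). This was lost with DESeq2 (0.0675) and on leaving out sgCdk10 replicate 1 (0.0643) or 2 (0.0704), and the adjusted p ran from 7.06e-05 to 0.0704 over the 14 alternatives. Chosen after their values were seen, the effector-like Bok had a log2 fold change of 0.10 (adjusted p by edgeR = 0.216) and the BH3-only gene Bmf of -0.14 (adjusted p by edgeR = 0.252). The pro-survival genes Bcl2a1a, Bcl2a1b, Bcl2a1d and Bcl2l10 and the BH3-only gene Bik were at 0 in every library, and the 3 Bcl2a1 genes are close paralogs among which reads may not be assigned.

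Genes that act at or after the mitochondrial pore, or restrain it, did not move in a single direction. Of 16 tested, 3 rose and 6 fell, or 56.2% called against 42.5% of all genes, with a median log2 fold change of -0.03. Without sgCdk10 replicate 1, 3 rose and 3 fell, and over the 14 alternatives 6 to 12 were called. Casp6, an executioner caspase, rose by 0.57 (SE 0.06; adjusted p by edgeR = 3.39e-08) from 20.4, 21.1 and 20.3 to 29.1, 29.9 and 32.6 CPM. The groups did not overlap. Apaf1, the scaffold of the apoptosome, rose by 0.36, and Htra2, a mitochondrial protease that antagonises inhibitors of apoptosis, fell by 0.28; exons of Htra2 overlap Aup1 and Loxl3 on the opposite strand. Chosen after its values were seen, the initiator Casp9 fell by 0.29 (adjusted p by edgeR = 0.00217).

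A list of transcriptional regulators known to act on the family also held the p53 target Mdm2. Of its genes 8 of 10 tested changed, 5 higher (Mdm2 among them) and 3 lower. That is 80% called against 42.5% of all genes. With 10 genes tested this is a count only, and 7 or 8 were called in each of the 14 alternatives. Foxo3, a known activator of Bcl2l11 and Bbc3, rose from 37.0, 36.2 and 36.5 to 51.8, 49.5 and 48.8 CPM, by 0.45 in log2 units (SE 0.05; adjusted p by edgeR = 2.65e-08). Jun, a component of AP-1 and a known activator of Bcl2l11 in neurons, rose by 1.15, and Stat3, a known activator of Mcl1 and Bcl2l1, by 0.35. Atf4 fell by 0.55 (SE 0.03; adjusted p by edgeR = 1.69e-14). Named after its values were seen, Ddit3, the gene of CHOP, fell by 1.18 (SE 0.10; adjusted p by edgeR = 2.45e-05) from 66.7, 67.0 and 55.0 to 30.2, 25.3 and 27.5 CPM. Bcl2l11 and Bbc3, both described as FOXO3 and CHOP targets, moved in opposite directions beside these changes, and the part of any regulator in them was not tested. Also named after their values were seen, Trp53 fell by 0.08 (adjusted p by edgeR = 0.0373), a call lost in 7 of 14 alternatives (adjusted p from 0.00838 to 0.200 over the edgeR fits without 1 library), and the p53 target Mdm2 rose by 0.16 (adjusted p by edgeR = 0.000244). The p53 targets Bax and Bbc3 were lower and Mdm2 was higher.

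Genes that act on the proteins of the family rose in 7 and fell in 1 of 17 tested cases, or 47.1% called, near the 42.5% of all genes, with a median of 0.04. This split depended on the scaling: with the GC and length correction 8 were called higher and 5 lower. The 5, named after their values were seen, were Akt1 (-0.17), Gsk3b (-0.14), Mapk8 (-0.12), Ppp3ca (-0.11) and Huwe1 (-0.07 in log2 units). Pim3, a kinase known to phosphorylate BAD, rose by 0.60 (SE 0.04; adjusted p by edgeR = 1.61e-12), and Rps6ka1, the gene of the kinase RSK1 that acts on BAD and BIM, by 0.75. Usp9x, which removes ubiquitin from MCL1, rose by 0.31, and Casp8, which cleaves BID, by 0.46. The mRNA of this protease rose where that of its substrate Bid fell. Counts of mRNA do not measure the activity of these enzymes. Exons of Bnip3, Casp9, Ddit3, Jun, Stat3 and Rps6ka1 also overlap annotated genes on the opposite strand, and reads of such pairs were not separated here. Ddit3 shares a further 105 bases with another annotated gene of the same name on the same strand. Where a symbol had more than 1 row, the row with the largest count sum was used.

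**Figure D4:**
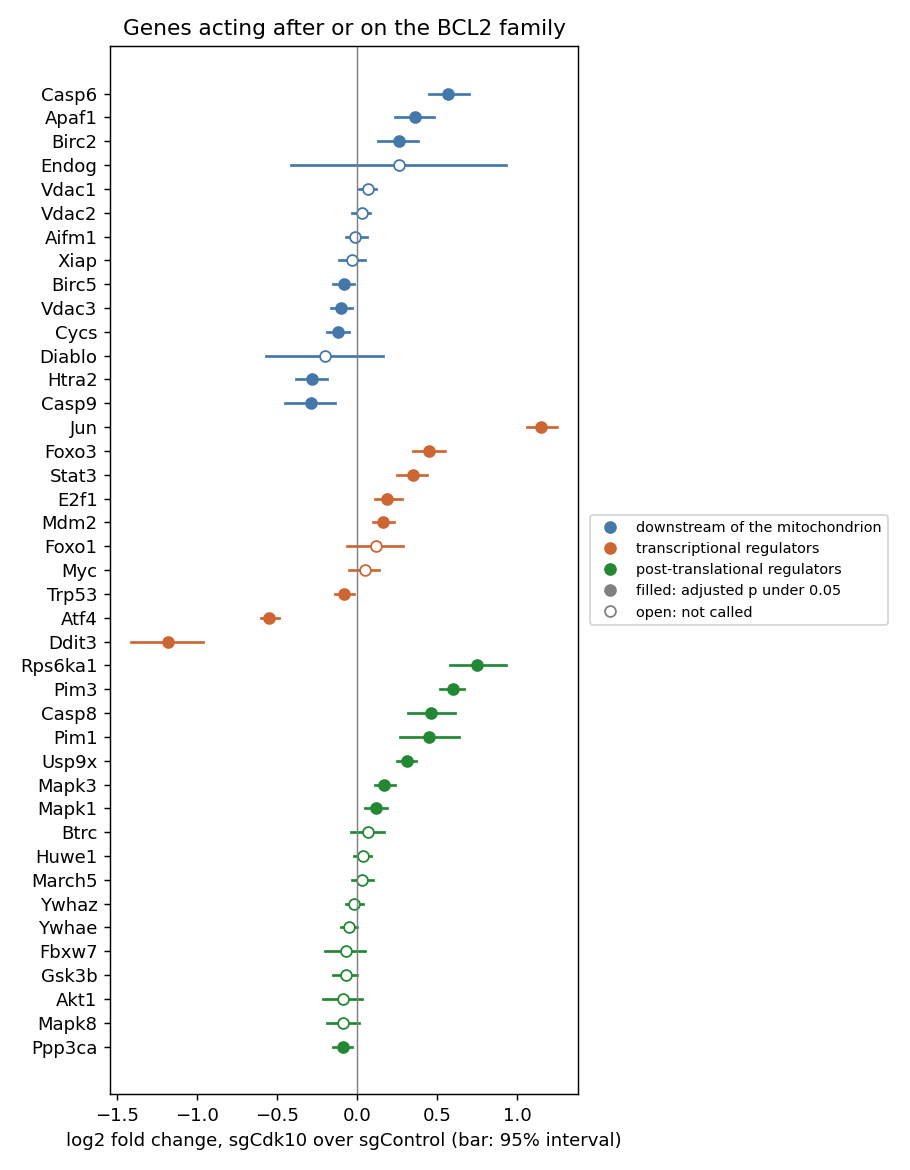
Log2 fold change, sgCdk10 over sgControl, with 95% intervals. Shown are 14 of the 16 tested genes acting at or after the mitochondrial pore or restraining it (downstream genes). Shown with them are 10 genes listed as transcriptional regulators, Mdm2 among them, and 17 post-translational regulators. Filled points passed an adjusted p of 0.05. Jun at 1.15 and Ddit3 at -1.18 lie furthest from 0, and the downstream genes lie on both sides of it.

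Bid, with the smallest p among the members, was compared with 11127 other tested genes by the Pearson correlation of log2 CPM over the 6 libraries. The most similar were Atp6v1b2 (r = 0.9999), a subunit of the vacuolar proton pump, Lars (0.9996), the cytosolic leucyl-tRNA synthetase, and Zfand2a (0.9995), a stress-inducible zinc finger gene. They fell by 0.33, 0.48 and 0.37 on the log2 scale. A correlation above 0.9 was found for 1593 genes. The 6 points form 2 groups and share the step between them, so the value is a description only.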

How the data were processed

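The authors deposited 1 table of raw counts per Ensembl gene for 6 libraries, without normalization. Per the submitters' processing notes the tools were HISAT2 2.2.1, featureCounts 2.0.3 and DESeq2 1.40.2 with the build mm10; neither the annotation nor the strand setting is given in the sources used here. Reads of overlapping or antisense genes therefore cannot be told apart. Groups and replicate numbers came from the titles. Symbols (52081 of 57010 identifiers), coordinates and merged exon lengths are from GENCODE M21 on GRCm38, and promoters from RefSeq GRCm38.p6.

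Genes were kept by filterByExpr (minimum count 10, minimum total 15), scaled by TMM and tested over all 13442 genes by quasi-likelihood F-test (edgeR 4.0.16, robust dispersions), group as the only term and Benjamini-Hochberg adjustment. SE was derived from the F statistic, and intervals from it and the t quantile. CPM used TMM-adjusted totals, which ran from 17532202 to 19258309 before adjustment. The script was tested on simulated data. Alternatives were DESeq2-type size factors, DESeq2 1.42.0, limma-voom (limma 3.58.1), no filter, a filter of 1 CPM, non-robust dispersions, the replicate block, a GC and length correction (loess span 0.5) and leaving out each library.

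The members and lists were chosen with earlier results of these data known, so no test was adjusted over them alone. Named were Cdk10, the 10 members, the called genes with the 4 smallest p in each further list (all where 5 or fewer were called) and the 3 genes most similar to the member of smallest p. Genes outside this rule are marked. Of the downstream list, 2 genes enter the counts but are not reported here.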

Additional observations from a re-analysis of the deposited data

How the results depend on the processing

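In all 14 alternatives 6 of the 9 tested members were called, and Bcl2l1, Mcl1, Bcl2l11, Bax, Bbc3 and Bid each kept direction and call in every one of them. Log2 fold changes ran from 0.11 to 0.18 for Bcl2l1, 0.13 to 0.16 for Mcl1, 0.38 to 0.49 for Bcl2l11, -0.18 to -0.11 for Bax, -0.51 to -0.37 for Bbc3 and -0.47 to -0.44 for Bid. The Bax call was closest to the threshold, with an edgeR adjusted p of 0.0493 without sgControl replicate 1 and of 4.33e-05 without replicate 3. Bcl2, Bak1 and Bad were called in none of the 14, and Bcl2 and Bad changed sign between them. Genes called over the whole table ran from 4179 with DESeq2 to 6056 without sgControl replicate 3, against 5717. With the replicate block 5481 genes and the same number of members (6) were called, and the call was lost for Birc5 and Trp53 (adjusted p by edgeR = 0.063 and 0.0562). Same-numbered libraries correlated at 0.03, -0.06 and -0.10 in their deviations from the group means. No other pairings were set beside these values, so whether same-numbered libraries shared a culture or batch was not tested. With the GC and length correction Huwe1, not called otherwise, had a log2 fold change of -0.07 against 0.04 (adjusted p by edgeR = 0.00643); the cause was not tested. Over 60 single genes and 839 comparisons with an alternative, 806 kept direction and side of the threshold, 22 lost the call, 10 gained it and 1 reversed.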
